A study of Mus musculus with 16 samples.

Results

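Messenger RNA of 10 interleukin receptor chains was examined in microglia, the resident macrophages of the brain, from the hippocampus of young and aged mice. The chains were Il7r, Il4ra, Il13ra1, Il21r, Il6ra, Il6st, Il10ra, Il1r1, Il1rap and Il17ra, chosen by symbol from the 24015 rows of the table of normalized counts. Cells had been sorted alive by CD11b and a low CD45 signal, and RNA was sequenced from 6 samples of mice aged 3 months and 6 of mice aged 20 months. All young samples and aged samples 1 to 4 carried the strain label C57BL/6. The strain label was C57BL/7 for aged 5, and C57BL/8 and C57BL/9 for the 2 libraries of aged 6. No genotype or treatment was named, and the labels do not say if mice were pooled within a sample. The p-values here therefore reflect only how much these samples varied, which may be technical.

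Interleukin receptors are built from chains that pair in the cell membrane when a cytokine binds. The alpha chains Il7r, Il4ra, Il21r and Il6ra bind their ligands, and shared chains such as Il2rg (the common gamma chain) and Il6st (gp130) complete the complex, which signals through JAK kinases and STAT factors. The IL-1 and IL-17 receptors instead recruit adaptors that lead to NF-kB. In microglia the IL-10 receptor is known for restraining inflammatory responses, and the IL-1 and IL-6 receptors for responding to inflammatory cytokines.

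None of the 10 chains passed the test of age, while 2 chains outside the set that pair with them did. With limma (Benjamini-Hochberg over all tested genes, adjusted p under 0.05), 0 of 10 members were called, against 1.73% of the 11579 genes tested (1.27% higher and 0.458% lower in aged samples). At an unadjusted p under 0.05 the members were Il7r and Il21r, 2 of 10 against 10.8% of tested genes. On the reads of the 8 samples with 1 library, edgeR and DESeq2 called 0 of 10 as well. With these fewer samples edgeR called 76 genes higher and 15 lower among all tested genes, and DESeq2 184 and 51. The median log2 fold change of the members was -0.061, with 3 above 0 and 7 below 0, beside a median of 0.0016 over all tested genes. For 7 members the 95% interval of the difference lay within 1.5-fold in both directions, and it reached past 1.5-fold for Il7r, Il6ra and Il1r1. Crlf2, the TSLP receptor chain that pairs with Il7r, rose 2.47-fold, and Il2rg, which pairs with Il7r, Il4ra and Il21r, rose 1.95-fold.

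Sequence upstream of the transcription start is shown for Il7r and for the partner chains Crlf2 and Il2rg, because these 3 genes encode the shared receptors on which the results below turn. Each is the 250 bases before the RefSeq start (GRCm38.p6, the build of mm10), 5′ to 3′ on the gene's own strand. The Il7r window lies inside the GENCODE gene, whose outermost transcript starts farther upstream than the RefSeq start, while the other windows end at the GENCODE gene. Capitals mark a match to the GAS element TTCNNNGAA, the motif bound by STAT factors.
Il7r, chr15:9529877-9530126, minus strand: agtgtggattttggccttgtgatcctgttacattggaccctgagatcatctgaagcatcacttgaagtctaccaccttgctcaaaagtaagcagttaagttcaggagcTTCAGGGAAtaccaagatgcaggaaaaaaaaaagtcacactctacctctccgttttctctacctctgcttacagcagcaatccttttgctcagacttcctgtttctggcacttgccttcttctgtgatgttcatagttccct
Crlf2, chr5:109558994-109559243, minus strand: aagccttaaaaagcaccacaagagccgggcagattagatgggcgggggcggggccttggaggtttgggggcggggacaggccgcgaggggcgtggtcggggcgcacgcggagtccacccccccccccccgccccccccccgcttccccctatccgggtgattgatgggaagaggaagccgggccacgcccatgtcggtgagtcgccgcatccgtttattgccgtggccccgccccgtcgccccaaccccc
Il2rg, chrX:101268256-101268505, minus strand: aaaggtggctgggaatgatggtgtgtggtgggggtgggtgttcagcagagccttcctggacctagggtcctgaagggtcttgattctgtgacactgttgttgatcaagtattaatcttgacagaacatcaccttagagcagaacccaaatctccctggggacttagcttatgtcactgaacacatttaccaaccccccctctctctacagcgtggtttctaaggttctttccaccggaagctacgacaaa

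The Il7r window held 1 GAS match, from 142 to 134 bases before the start, and a match is a description, not a binding site. GAS matches were found in 7.01% of all 32817 promoter windows of this length. The PU.1 site GAGGAAGT (2.44% of windows), the ETS core CCGGAAGT (2.88%) and the ISRE core, which is GAAA, any 2 bases and GAAA (2.97%), searched on both strands, had no match in these 3 windows. The 3 sequences differed in base composition, with 44.0% G and C for Il7r, 49.2% for Il2rg and 71.6% for Crlf2. A RefSeq promoter was matched for 8 of the 10 members.

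The members covered a wide range of levels. Per kilobase of merged exons (GENCODE M21), which allows genes to be compared, Il10ra had the highest level in young samples, 9715 ± 1142 normalized counts per kb (SD, n = 6). Il13ra1 (2914 ± 416), Il21r (2421 ± 47.2), Il4ra (2132 ± 137) and Il6st (1949 ± 247) followed, then Il17ra (1225 ± 134) and Il6ra (712 ± 318). Il7r lay lower, at 238 ± 24.3, and Il1rap, at 37.7 ± 5.07, and Il1r1, at 6.54 ± 1.29, were lowest. The order of the means was the same at 20 months. Of neighbours in this order, Il13ra1 and Il21r, Il4ra and Il6st, and Il17ra and Il6ra overlapped between young samples. Merged exons can be longer than the isoforms a cell makes, so these levels are approximate.

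**Figure D1:**
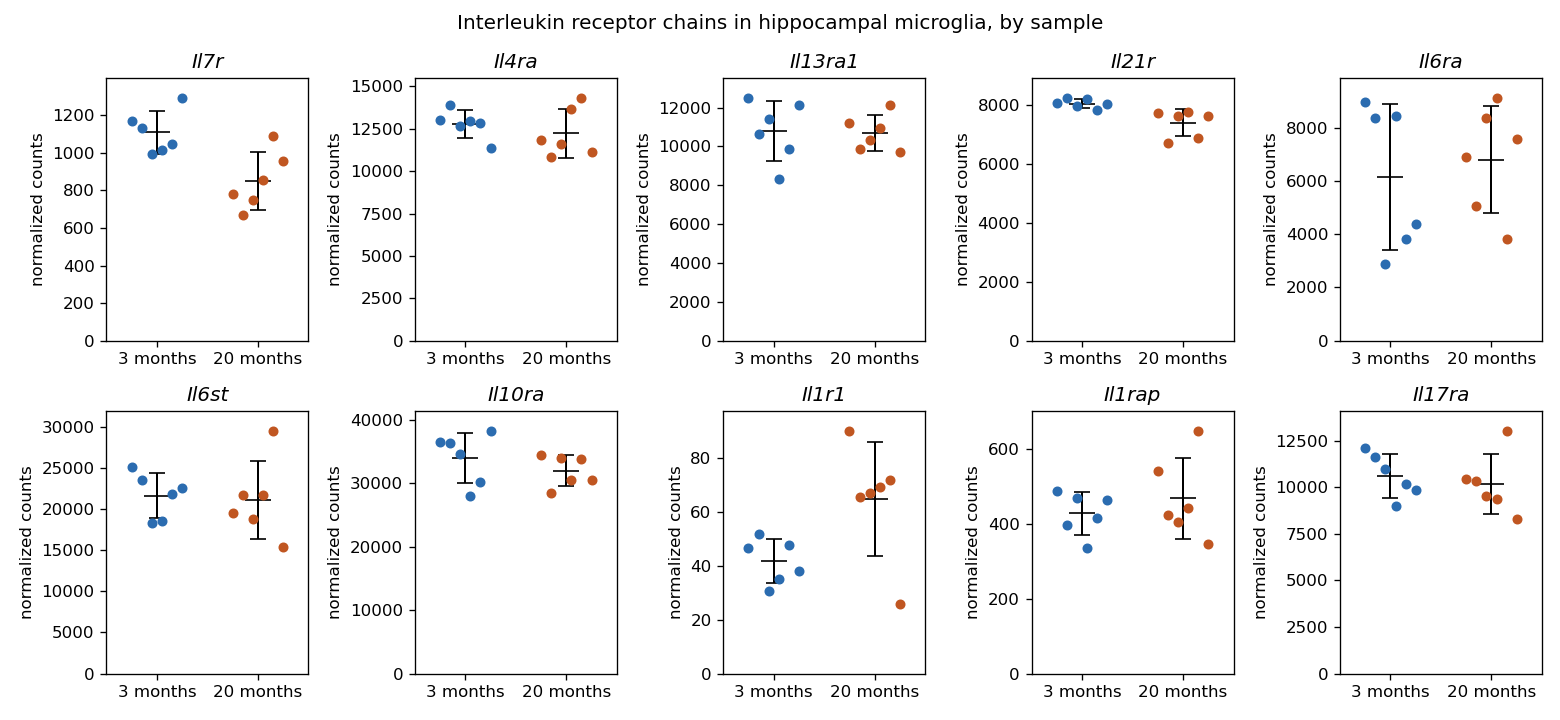
Normalized counts of the 10 interleukin receptor chains (vertical axes, linear and starting at 0) in 6 samples at 3 months (blue) and 6 at 20 months (orange), with bars for mean ± SD. Il21r is the 1 chain with every aged sample below every young sample, and Il6ra spreads from 2867 to 9151 with no separation by age.

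The chains of the common gamma family and the IL-4 and IL-13 receptors came first. Il7r, the alpha chain for IL-7 and TSLP (chromosome 15, 9505788 to 9530176, mm10), ranged from 996 to 1294 normalized counts in young samples, with a median of 1091. In aged samples it ranged from 667 to 1089, with a median of 820, and 5 of 6 lay below every young sample. Only aged 5, at 1089, reached into the young range. The difference was -0.40 on the log2 scale (SE 0.11, 1.32-fold lower), with an unadjusted limma p of 0.0027 and an adjusted p of 0.101. Without aged 5 the limma adjusted p was 0.025, and without aged 5 and aged 6, the samples with other strain labels, it was 0.0093, so this call depended on aged 5. Those fits called 1.68% and 1.69% of tested genes. They were the only 2 of 25 alternative fits in which Il7r passed. Among the others its adjusted p reached 0.368 (edgeR on the 8 samples with 1 library).

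Il7r is best known from lymphocytes, and lymphocyte markers were looked at beside it. Of 13 T cell and innate lymphoid markers in the table, 11 did not reach 10 normalized counts in any sample, and the exceptions were Lck and Rora. The 13 markers together summed to 8.14 to 12.2 CPM in young and 8.07 to 14.0 CPM in aged samples. Cd3e, a defining T cell chain, did not exceed 3.08 normalized counts. In such bulk samples fewer cells of a type and less RNA per cell cannot be told apart. The 3 tested genes whose departures from the age means were most like those of Il7r over the 12 samples were Gm10509 (Pearson r = 0.96, Spearman rho = 0.99), Hbp1 (0.94 and 0.84) and Dgcr14 (0.90 and 0.70). Without the 2 samples farthest from the median of Il7r, r was 0.93, 0.85 and 0.76. These points share library and depth effects, and none of the 3 genes passed the age test (limma adjusted p from 0.67 to 0.87).

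Crlf2, which joins Il7r in the TSLP receptor (chromosome 5, 109554709 to 109558993), rose with age. It lay between 471 and 926 normalized counts in young samples (median 878) and between 1143 and 2299 in aged samples (median 2144), without overlap. Young 6 was lowest among the young and aged 5 lowest among the aged. The log2 fold change was 1.30 (SE 0.18, limma adjusted p = 3.8e-04), and the call held in 25 of 25 alternative fits. Il2rg, the common gamma chain (chromosome X, 101264378 to 101268255), lay between 219 and 307 in young samples (median 275) and between 311 and 889 in aged samples (median 563). Every aged sample was above every young one, by a small margin for aged 6, at 311. Its log2 fold change was 0.96 (SE 0.20, limma adjusted p = 0.016), which became 0.053 without the variance trend. Its exons share 728 bases with those of Gm20489 on the same strand, so its level is uncertain.

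Ratios of Il7r to its partners were lower in aged samples. Per exon kilobase, the ratio of Il7r to Crlf2 was 0.351 to 0.881 in young samples (median 0.406) and 0.102 to 0.305 in aged samples (median 0.117). The ratio of Il7r to Il2rg was 1.73 to 2.45 in young samples (median 2.07) and 0.433 to 1.57 in aged samples (median 0.868). Neither ratio overlapped between ages. Of 10 ratios between chains of known receptors, 4 did not overlap, and each of the 4 held Il2rg or Crlf2. They restate the levels above and were not tested.

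**Figure D2:**
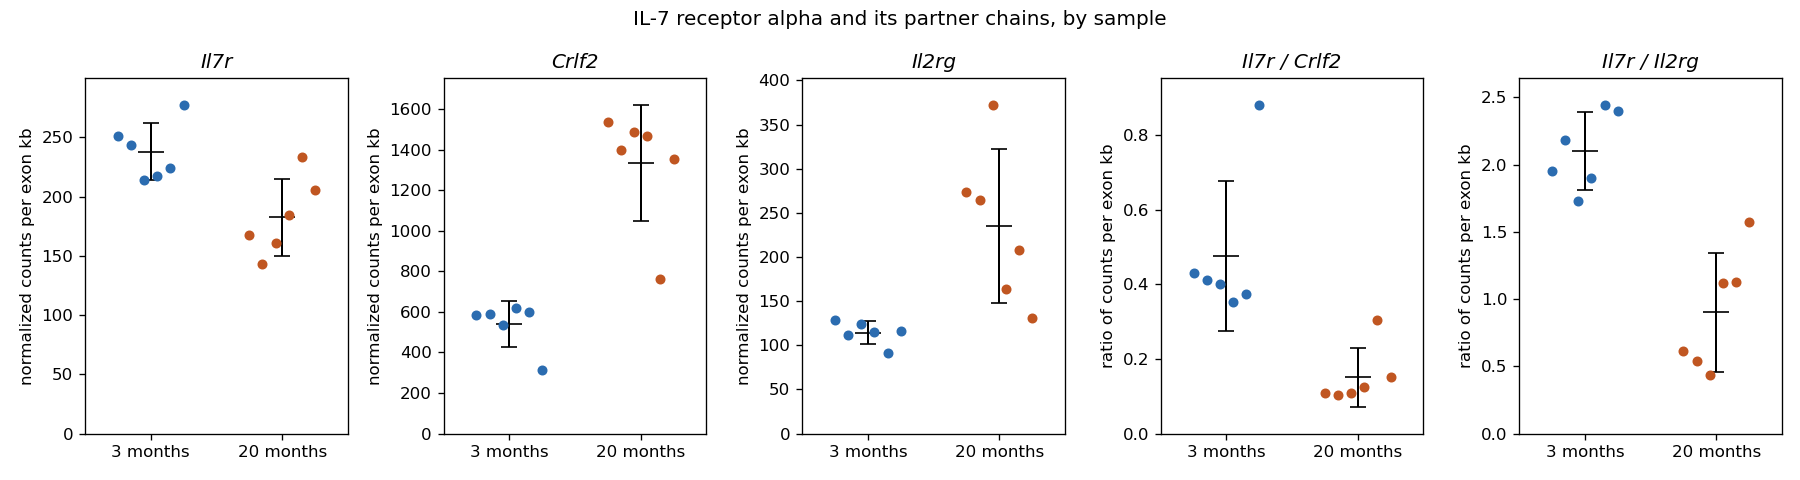
Levels of Il7r, Crlf2 and Il2rg (normalized counts per exon kb, 3 left panels) and ratios of Il7r to each partner (2 right panels) by sample, with mean ± SD. The aged samples lie below the young ones in both ratios, and above them for Crlf2 and Il2rg.

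Markers of other cells were summed in the same samples, and some sums differed by age. The 6 monocyte markers summed to 2.11 to 4.48 CPM in young and 4.10 to 5.86 CPM in aged samples, and the 6 choroid plexus markers to 9.83 to 48.8 and 16.1 to 131 CPM. The 8 border macrophage markers stood at 8.49 to 14.7 and 6.97 to 29.0 CPM. In none of these lists did a gene pass the test, with 3, 4 and 6 members tested. The 7 astrocyte markers summed to 207 to 259 CPM in young and 214 to 282 CPM in aged samples, and of 4 tested, all above 0, Aldh1l1 rose (limma adjusted p = 0.041). B cell markers stood at 36.3 to 46.0 and 27.8 to 35.1 CPM, with Cd79b lower in aged samples (limma adjusted p = 0.038), and Pax5 was listed at 0 in all 12 samples. The 14 microglia markers summed to 78191 to 84662 CPM in young and 70016 to 76648 CPM in aged samples, without overlap. Of these 14, Fcrls fell and 13 did not pass. In direction, 3 lay above 0 and 11 below 0, with a median log2 fold change of -0.11. The part of the other cells, and of this lower microglia sum, in the rises of Crlf2 and Il2rg and in the lower member values was not tested.

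Il21r, the alpha chain for IL-21, showed the narrowest spread of the members. Young samples lay between 7817 and 8241 normalized counts (median 8041) and aged samples between 6718 and 7747 (median 7622). Every aged sample was below every young sample, in a count of 1 of 10 members against 1.87% of tested genes with no overlap in either direction, and 0.717% with all aged samples below. The size was small, -0.13 on the log2 scale (SE 0.058, 95% interval -0.25 to -0.0027, 1.09-fold lower), and it did not pass (limma adjusted p = 0.442, 0.37 to 0.70 over the alternatives). Its within-age SD of 0.068 on the log2 scale was lower than that of all but 1.2% of the 500 tested genes nearest in level, and limma's moderated variance draws such a low spread towards that of other genes. Il21r lies 24.0 kb downstream of Il4ra on chromosome 7 (125603429 to 125633570, and 125552120 to 125579474).

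Il4ra, the ligand-binding chain for IL-4 and, with Il13ra1, a part of the receptor for IL-13, did not pass. It ranged from 11378 to 13929 normalized counts in young samples (median 12895) and from 10836 to 14330 in aged samples (median 11720), and the ages overlapped. The difference was -0.071 (95% interval -0.23 to 0.091, limma adjusted p = 0.853). Il13ra1, which completes the type II receptor, ranged from 8340 to 12506 (median 11026) and from 9704 to 12114 (median 10651). Its difference was -0.0071 (95% interval -0.20 to 0.19, limma adjusted p = 0.990), with overlapping ages. The ratio of Il4ra to Il13ra1 per exon kilobase overlapped, with medians of 0.746 and 0.702. Part of Il4ra, 571 exon bases, overlaps Gm44876 on the other strand, and the libraries do not mark strand.

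Il6ra and Il6st form the IL-6 receptor, Il6ra as the chain that binds IL-6 and Il6st as the signalling chain shared with LIF, oncostatin M and IL-11. Il6ra ranged from 2867 to 8975 normalized counts in young samples (median 6404) and from 3833 to 9151 in aged samples (median 7255). Its young samples fell apart, with young 1, 2 and 4 between 8404 and 8975 and young 3, 5 and 6 between 2867 and 4405. Aged samples spread over much the same range. The difference was 0.22 (95% interval -0.35 to 0.80, limma adjusted p = 0.869), so that a rise of up to 1.74-fold or a fall to 0.785 of the young level is within the interval.

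The spread of Il6ra within ages was larger than that of nearly all genes of like level. Its SD of 0.61 on the log2 scale exceeded that of 99.8% of the 500 tested genes nearest in level. The 4 samples with 2 libraries (young 2, young 4, aged 3 and aged 6) stood between 7580 and 8463, while the 8 samples with 1 library spanned 2867 to 9151. Its departures ran with those of 265 other tested genes at an absolute r of at least 0.8, compared with a median of 74 per tested gene. This was not particular to Il6ra, as Il6st (388), Il13ra1 (352) and Il1rap (345) had more, and Il17ra had 262. Chosen after the values of Il6ra were seen, the 3 genes most like it were Pan3 (r = 0.97, rho = 0.94), Fam217b (0.97 and 0.94) and 4632427E13Rik (0.96 and 0.94). The 12 samples share library and depth effects. Whether library or RNA quality has a part in this was not tested. Il6ra shares 242 exon bases with Gm42809 on the other strand.

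Il6st was among the most abundant members in counts. It ranged from 18302 to 25106 normalized counts in young samples (median 22142) and from 15406 to 29517 in aged samples (median 20633). The highest value, aged 5, and the lowest, aged 6, were both aged, and the ages overlapped. The difference was -0.053 (95% interval -0.31 to 0.21, limma adjusted p = 0.938). The ratio of Il6ra to Il6st followed the spread of Il6ra, with 0.201 to 0.587 in young and 0.167 to 0.632 in aged samples.

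Il10ra, the ligand-binding chain for IL-10 and the most abundant member, ranged from 28052 to 38252 normalized counts in young samples (median 35477). It ranged from 28451 to 34519 in aged samples (median 32177), within the young range. The difference was -0.084 (95% interval -0.25 to 0.087, limma adjusted p = 0.825). Its partner Il10rb stood at 8897 ± 512 and 8492 ± 458 (SD, n = 6; limma adjusted p = 0.810). The ratio of Il10ra to Il10rb per exon kilobase was close in both ages, at medians of 4.14 and 4.12. Exons of Il10rb share 569 bases with those of Gm21970 on the same strand, so its level and this ratio are uncertain. Il10 itself was listed at 0 in all 12 samples.

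Il1r1, the signalling receptor for IL-1, was the lowest member, at 19 to 104 reads in the 8 samples with 1 library. It ranged from 30.6 to 51.7 normalized counts in young samples (median 42.4) and from 25.6 to 89.9 in aged samples (median 68.0). Of the aged samples 5 lay above every young sample and aged 6, at 25.6, lay below every one. The difference was 0.56 (SE 0.28, 95% interval -0.028 to 1.14, limma adjusted p = 0.495). Over 25 alternative fits the adjusted p ran from 0.076 (limma without aged 6) to 0.697 (limma without aged 1), and none passed. A difference of this size did not pass at this depth and spread.

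Il1rap, the coreceptor that completes the IL-1 and IL-33 receptors, ranged from 334 to 489 normalized counts in young samples (median 440). It ranged from 346 to 648 in aged samples (median 432), and the ages overlapped. The difference was 0.11 (95% interval -0.20 to 0.41, limma adjusted p = 0.886). Its exons share 552 bases with Gm20319 on the other strand, a gene listed at 0 in all 12 samples. Il1rl1, the IL-33 receptor chain that pairs with Il1rap, stood at 459 ± 95.8 and 372 ± 78.1 (SD, n = 6; limma adjusted p = 0.518).

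Il17ra, the common chain of the IL-17 receptors, ranged from 8994 to 12089 normalized counts in young samples (median 10559) and from 8280 to 13030 in aged samples (median 9919). The ages overlapped, with aged 5 highest and aged 6 lowest of all. The difference was -0.070 (95% interval -0.28 to 0.14, limma adjusted p = 0.890). Its partner Il17rc was far lower, at 17.1 ± 4.95 and 18.4 ± 7.62 normalized counts (SD, n = 6; limma adjusted p = 0.992).

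**Figure D3:**
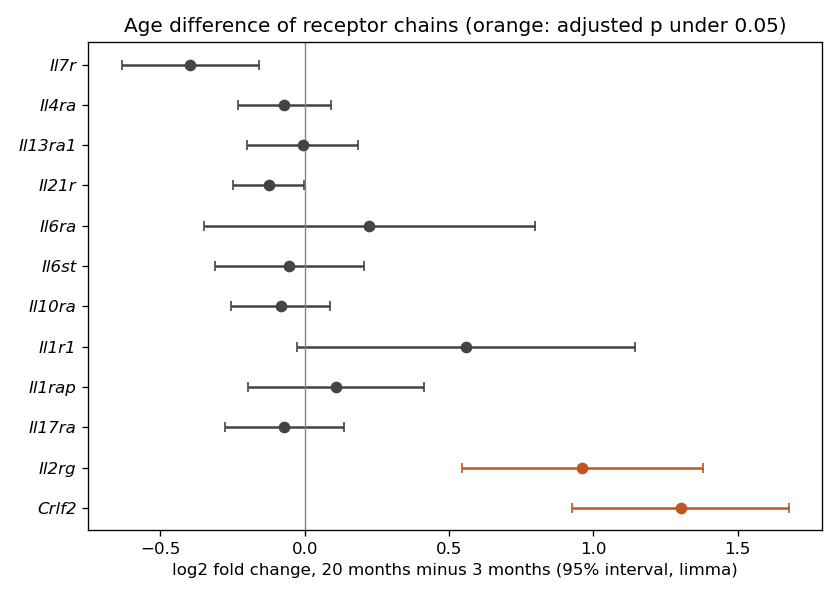
Log2 fold change of aged against young samples (horizontal axis) with its 95% limma interval for the 10 members and for Il2rg and Crlf2. The intervals of Il2rg and Crlf2 lie above 0, those of Il7r and Il21r lie below 0 without passing adjustment, and those of Il6ra and Il1r1 are the widest.

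Several members rose and fell together from sample to sample within an age. The departures of Il10ra and Il13ra1 from their age means had a Pearson r of 0.84 over 12 samples (Spearman rho = 0.71, r = 0.69 without the 2 samples farthest from the median of Il10ra). Il1rap and Il17ra (r = 0.83, rho = 0.74, 0.60 without 2 samples) and Il13ra1 and Il1rap (r = 0.83, rho = 0.85, 0.84 without 2 samples) were close to this. Among all 66 pairs of the members, Crlf2 and Il2rg, the lowest value was that of Il7r and Crlf2 (r = -0.72, rho = -0.52, -0.63 without 2 samples). Young 6 and aged 5, the lowest of their ages in Crlf2, had the highest Il7r departures (0.23 and 0.37). Young 6 was not among the 2 samples left out. These correlations are descriptions of samples that share library and depth effects, with no test. Aged 5 stood above the aged mean in Il6st (by 0.51 on the log2 scale), Il1rap (0.50), Il17ra (0.37) and Il7r (0.37), and below it in Il6ra (-0.77). Aged 6 stood below it in Il1r1 (-1.22), Il6st (-0.43), Il1rap (-0.40) and Il17ra (-0.28).

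**Figure D4:**
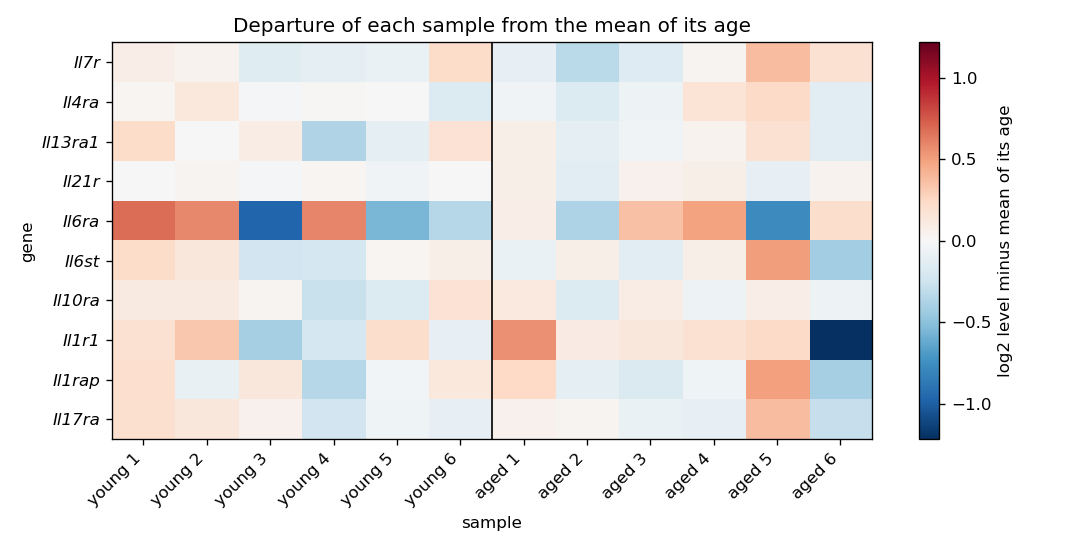
Departure of each sample from the mean of its age (colour, log2 scale) for the 10 members (rows) in 12 samples (columns; line between ages). Il6ra shows the largest departures in young samples, aged 5 and aged 6 depart in opposite directions in Il6st, Il1rap and Il17ra, and the darkest cell is Il1r1 in aged 6.

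The other genes of these pathways were taken from fixed lists. Of 40 other chains of the interleukin receptor families, 18 were tested, 2 rose (Crlf2 and Il2rg; 1.27% of all tested genes rose), 0 fell and 16 did not pass, with a median log2 fold change of 0.035. Of the 40, 19 did not reach 10 normalized counts in any sample, among them Il2ra, Il2rb and Il23r. Of 27 ligands and antagonists in the table, 9 were tested and none passed with limma. At an unadjusted limma p under 0.05 there were 3, against 10.8% of all tested genes. On the 8 samples with 1 library, edgeR and DESeq2 each called 0. Il6 had the smallest p, from 65.6 to 121 normalized counts in young samples (median 90.4) and from 130 to 210 in aged samples (median 141). The ages did not overlap, with a log2 fold change of 0.72 (SE 0.18, limma adjusted p = 0.059). Il6 passed in 1 of 25 alternative fits (limma without young 4, 0.049). Among the others the adjusted p reached 0.384 (edgeR on the 8 samples). Il4, Il13, Il21, Il17a and Il7 did not exceed 1.85 normalized counts, while Il1a, a ligand of Il1r1, stood at 2161 ± 88.6 and 2194 ± 435 (SD, n = 6).

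Genes that act downstream of the receptors were looked at next. Stat3, which acts after IL-6 and IL-10, stood at 8327 ± 542 and 9103 ± 1234, and Stat6, which acts after IL-4, at 9990 ± 689 and 10659 ± 1400 (SD, n = 6; limma adjusted p = 0.70 and 0.82). Of 19 tested adaptors of the IL-1 and IL-17 receptors, 18 did not pass, and 1.27% of all tested genes rose. Irak3, a brake on IL-1 receptor signalling, rose. It ranged from 108 to 192 in young and from 192 to 268 in aged samples (log2 fold change 0.61, SE 0.15, limma adjusted p = 0.046), a call lost in 17 of 25 alternative fits. Leaving out 1 sample kept it without young 3 or aged 1 and lost it for each of the other 10 (limma adjusted p from 0.064 to 0.124).

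Genes known to respond to these receptors were taken next. Of 15 tested targets of STAT3, 2 rose and 13 did not pass, beside 1.27% of all tested genes that rose. Fgl2, a secreted fibrinogen-like protein, ranged from 510 to 700 normalized counts in young and from 820 to 2426 in aged samples, without overlap (log2 fold change 1.52, SE 0.21, limma adjusted p = 4.4e-04). Ifitm3, an antiviral membrane protein, ranged from 125 to 225 and from 192 to 708 (log2 fold change 1.15, SE 0.24, limma adjusted p = 0.016), a call lost without the variance trend (0.054) and with limma on the 8 samples with 1 library (0.050). Both are also known as interferon-inducible genes, and Socs3, a standard STAT3 target, stood at 1154 ± 262 and 1163 ± 265 (SD, n = 6; limma adjusted p = 0.99). Of 10 tested targets of STAT6, none passed with limma, and 1 had an unadjusted p under 0.05, against 10.8% of all tested genes. On the 8 samples with 1 library, edgeR and DESeq2 each called 0. Chil3 had the smallest p, at 1.30 to 17.5 and 7.18 to 28.2 normalized counts (limma adjusted p = 0.44). Of 10 tested enzymes of receptor shedding and traffic, none passed with limma, and 0 had an unadjusted p under 0.05, against the same 10.8%. Here too edgeR and DESeq2 called 0 on the 8 samples. Furin had the smallest p (3905 ± 410 and 4260 ± 309; limma adjusted p = 0.62), and Adam17, which cleaves Il6ra from the cell surface, stood at 12813 ± 1477 and 12323 ± 1231 (SD, n = 6).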

How the data were processed

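RNA from sorted microglia was made into libraries with SmartSeq v4 and Nextera XT kits, per the labels' protocols, a chemistry that does not mark strand. Normalized counts, a signal that is never negative, were deposited in 1 table with a column for each of 12 samples. The labels name 16 libraries, with 2 technical replicates for young 2, young 4, aged 3 and aged 6. The series' design text names STAR for alignment, samtools for the count matrix and DESeq2 for the authors' own comparison, and the submitters' processing notes name build mm10. No version or annotation is given in these sources.

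In the 8 single-library columns each positive value (100%) was, to within 0.1, a whole number of reads times a fixed step. Reads recovered this way totalled 11.4 M in young 1 and 23.4 to 47.3 M elsewhere. In the 4 columns with 2 libraries reads were not recovered and depth is unknown. Values were used without further scaling.

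Genes with at least 10 normalized counts in at least 6 samples were tested as log2(normalized count + 1) with limma 3.58.1 (R 4.3.3, variance trend, two-sided, Benjamini-Hochberg over 11579 genes, threshold 0.05). Fold changes are on this log2 scale and understate changes of low genes. The script was tested on simulated data. Alternatives were pseudocounts of 0.5 and 5, no filter, a mean of at least 50, quantile normalization, equal totals, no variance trend, robust empirical Bayes, a replicate block, leaving out samples, and, on recovered reads, edgeR 4.0.16 and DESeq2 1.42.0.

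All 10 members were named. Of each list, genes past the threshold were named, or else the gene with the smallest p. Others, such as Il10rb, Il17rc, Il1rl1, Stat3, Stat6, Socs3, Il1a and Adam17, were named for their role after their values were seen. Members and lists were chosen with earlier results of these data known. CPM is the usual scaling by the sample's total, here of a list's summed normalized counts. Protein sequences were not analysed here. Some genes of the lists, and the call count of the JAK-STAT list, are not reported here. Positions and exon lengths are from GENCODE M21.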

Additional observations from a re-analysis of the deposited data

Results flagged for a closer look

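In 2 of 38 groups of 6 samples that were looked at (19 genes in 2 ages), 1 sample stood far from the other 5. Both were in Crlf2. Young 6 had 471 normalized counts, while the other young samples lay between 799 and 926. Aged 5 had 1143, while the other aged samples lay between 2026 and 2299. Chance alone gives such a gap in about 1 in 20 groups.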

How the results depend on the processing

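The count of 0 members became 1 (Il7r) without aged 5 and aged 6, ranged from 0 to 1 when 1 sample was left out, and stayed 0 in the other alternatives. The 2 other chains became 1 (Crlf2) without the variance trend and stayed 2 in each fit leaving out 1 sample. Of all genes, 147 were higher and 53 lower. On the 8 samples with 1 library, limma gave 67 and 11, edgeR 76 and 15, and DESeq2 184 and 51. Fits leaving out 1 sample called 102 to 175 genes higher. Genes lower numbered 27 to 60 in these fits, and were fewest for young 5 (27), young 6 (30), young 2 (32), and young 1, young 4 and aged 2 (35 each). The cause was not tested.

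With the sample number as a replicate block, 115 genes were higher and 30 lower, and 0 members and 2 other chains were called. The labels do not tie equal numbers, and the same-numbered samples did not depart together (correlations from -0.12 to 0.11, with 1 of 6 highest for its own number).

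Some members near 0 changed sign. Il6st was at 0.069 (limma), 0.080 (edgeR) and 0.078 (DESeq2) on the 8 samples, and -0.16 to 0.033 leaving out 1 sample. Il4ra was at 0.015, 0.022 and 0.022 on the 8 samples. Il17ra was at 0.0042 (edgeR) and 0.0032 (DESeq2). Il13ra1 was at 0.0093 with equal totals and -0.080 to 0.037 leaving out 1 sample. None of these passed the test.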
